A study of Mus musculus with 4 samples.

Results

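A set of 10 genes of heme and iron handling was followed in single cells of the mouse brain after stroke. They are the rows of the deposited count tables with the symbols Hmox1, Cd163, Slc40a1, Fth1, Ftl1, Tfrc, Slc11a1, Blvrb, Hp and Slc48a1, 10 of 31253 genes in the tables. All 10 identifiers were found in the GENCODE annotation used here, whose build, GRCm38, is the one also called mm10. A further list of 46 genes of the same pathways gave the setting.

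The 4 libraries came from the brain hemisphere on the side of the lesion, taken 3 days after tMCAO (transient occlusion of the middle cerebral artery), a stroke model in which a brain artery is blocked and reopened. The groups were set against each other with 2 libraries in each. The Flox controls were Htr2b flox/flox littermates, and the Ms4a3 cKO group was meant to lose Htr2b, the gene of the serotonin receptor 5-HT2B, through Ms4a3-Cre. Ms4a3 is active in progenitors of granulocytes and monocytes, so that this Cre is meant for cells that enter from the blood. The series text also names an Htr2b ERCre and gives tamoxifen with a 3-day washout before surgery to the mice, so the labels leave the acting Cre allele unclear. The strain is written as C57B6 for all libraries, the mice were adult and male and/or female, and no tMCAO-free brain was analysed here. Whether a library holds 1 animal or several is not stated, so p-values measure only the spread between these libraries, which may be technical.

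Heme iron enters the damaged brain with hemoglobin from red cells. Macrophages take hemoglobin up bound to haptoglobin through CD163, heme oxygenase 1 opens the heme ring, and biliverdin reductases turn the product into bilirubin. The freed iron is stored in ferritin or leaves the cell through ferroportin. Transferrin receptor brings iron in, and the iron regulatory proteins bind hairpins in several of these mRNAs when iron is low, which stops translation of ferritin and ferroportin and protects the transferrin receptor mRNA from decay.

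These hairpins, the iron-responsive elements, are the sequence that 4 of the 10 genes share, and they are shown because ferritin, ferroportin and transferrin receptor values stand at the centre of the comparisons. The capitals mark the loop. Fth1 carries 1 on the plus strand at chr19:9982732-9982760 and Ftl1 carries 1 on the minus strand at chr7:45459779-45459807, both in the 5′ untranslated region. Slc40a1 carries 1 on the minus strand at chr1:45925465-45925493, also in the 5′ untranslated region. Tfrc carries 4 in its 3′ untranslated region on the plus strand, at chr16:32631219-32631247, chr16:32631598-32631626, chr16:32631663-32631691 and chr16:32631710-32631738.
Fth1: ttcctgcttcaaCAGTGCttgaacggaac
Ftl1: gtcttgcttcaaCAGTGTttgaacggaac
Slc40a1: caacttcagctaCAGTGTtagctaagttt
Tfrc site 1: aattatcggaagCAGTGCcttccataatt
Tfrc site 2: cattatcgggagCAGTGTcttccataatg
Tfrc site 3: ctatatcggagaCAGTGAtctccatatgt
Tfrc site 4: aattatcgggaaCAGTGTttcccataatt
Each site was found as a C, 5 bases of stem, the loop letters CAGTGN, and 5 bases that pair with the stem, with at most 1 mispair of the 5, on the transcript strand only. In all 7 sites the 5 pairs were complete. The same search found a match in 0.985% of genes with a 5′ untranslated region and in 4.14% of those with a 3′ untranslated region, regions of any length. No other member held a match, which says only that these letters are not in its annotated untranslated regions.

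The matrices held between 14007 and 17097 barcodes and between 77580518 and 105566650 UMIs (unique molecular identifiers, 1 per captured mRNA molecule) per library. The filters left 59685 of 63181 barcodes. Their median depth was 6599 and 5523 UMIs in Flox control 1 and 2 and 3764 and 4004 UMIs in Ms4a3 cKO 1 and 2. Across libraries 15 barcode sequences recurred. Clusters, built without the 10 genes and the pathway list, were named from markers and are called by class alone, although each is only like that class. Of 26 clusters 3 stayed unnamed, and 12 of 15 classes had at least 50 cells in every library. Flox control 1 stood apart: 90.3% of its monocyte-macrophages lay in cluster 4 and 78.1% of its microglia in cluster 2. Cluster 5 held 72.1% of those of Flox control 2, and cluster 6 held 62.3 and 67.6% of those of Ms4a3 cKO 1 and 2. Cluster 6 was named for 3 monocyte-macrophage markers among its top 10 genes (Arg1, Thbs1, Chil3) against 2 of border macrophages (Pf4, F13a1). The mean marker score (z over clusters) went the other way there, with 1.20 for the border macrophage list and 1.14 for the monocyte-macrophage list. At resolution 2 the matching cluster scored 1.22 and 1.13, so the name of cluster 6 is uncertain. Htr2b itself stood at 96.6 and 120.7 CPM (a library's UMIs of the class scaled to a fixed total, here with TMM scaling) in Flox monocyte-macrophages and at 10.9 and 24.95 in cKO ones. The log2 fold change was -2.61 (SE 0.43), lower in 2 of 2 cKO libraries, but edgeR's adjusted p was 0.344.

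Hmox1 (ENSMUSG00000005413, chr8:75093621-75100589), the enzyme that breaks heme down, was a gene of macrophages. Border macrophages, which live along vessels and meninges, held 733.9, 697.8, 1046.4 and 752.1 CPM in Flox control 1 and 2 and Ms4a3 cKO 1 and 2, here and in all levels below without TMM scaling. Monocyte-macrophages followed with 487.2, 795.4, 838.7 and 630.8 CPM, a range that overlapped with that of border macrophages. Microglia held 194.5, 328.9, 285.3 and 253.3 CPM, below every monocyte-macrophage value. Neutrophils came next at 149.3 ± 33.2 CPM (SD, n = 4 libraries), below every microglial value, and neuroblasts last. Levels across classes describe cells that were also clustered, so they carry no test.

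Cd163 (ENSMUSG00000008845, chr6:124304656-124330527), the receptor for the haptoglobin-hemoglobin complex, was set apart in border macrophages. Its level there was 719.6, 709.6, 1423.0 and 1489.8 CPM. The class next in order, monocyte-macrophages, held 1.2, 4.6, 136.5 and 57.0 CPM, so the 2 ranges did not overlap. Dendritic cells were next with a mean of 11.1 CPM. Slc40a1 (ENSMUSG00000025993, chr1:45908068-45926523), the iron exporter ferroportin, was highest in endothelium with 489.6, 271.1, 170.2 and 277.4 CPM. Neutrophils held 213.4, 179.0, 167.3 and 150.2 CPM and border macrophages 295.2, 160.9, 66.8 and 71.9 CPM, and these 3 classes overlapped in that order. Microglia stood at 61.4 ± 17.4 CPM (SD, n = 4 libraries), while monocyte-macrophages held between 4.6 and 10.8 CPM.

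Both ferritin chains were found in every class. Fth1 (ENSMUSG00000024661, chr19:9980598-9985098), the heavy chain that oxidises iron, was led by clusters of oligodendrocytes, the cells that make myelin. Cluster 11 held 0 and 5 cells of the Flox controls against 759 and 1349 of the cKO libraries, so its level, 3567.7 and 3053.9 CPM, was seen in 1 genotype only. Cluster 12, present in all 4 libraries, held 3699.8, 1809.0, 2239.7 and 2235.3 CPM, and neutrophils and monocyte-macrophages stood beside it at 2452.8 ± 1457.2 and 2290.4 ± 991.9 CPM (SD, n = 4 libraries). Ftl1 (ENSMUSG00000050708, chr7:45457944-45459884), the light chain, had another order. Monocyte-macrophages led with 629.6, 924.6, 466.5 and 638.5 CPM, followed by border macrophages and microglia at 347.2 ± 133.4 and 296.7 ± 95.5 CPM (SD, n = 4 libraries), while oligodendrocyte cluster 12 had 47.7 CPM on average. Both genes have near-identical pseudogene copies with which the counting could share reads, so their levels are uncertain to that extent.

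The other members each had their own cells. Tfrc (ENSMUSG00000022797, chr16:32608920-32632794), the transferrin receptor, was highest in endothelium with 618.4, 283.0, 221.1 and 615.5 CPM. Oligodendrocyte cluster 14 followed with a mean of 263.3 CPM, and the 2 ranges overlapped. Slc11a1 (ENSMUSG00000026177, chr1:74375195-74386062), which moves iron out of phagosomes, was highest in myeloid cells: monocyte-macrophages, neutrophils, border macrophages, microglia and dendritic cells had means between 46.4 and 102.5 CPM. Astrocytes came next with a mean of 12.9 CPM, and their highest library, at 32.1 CPM, overlapped with the lowest of dendritic cells, at 27.2 CPM. Hp (ENSMUSG00000031722, chr8:109575128-109579172), haptoglobin, was led by neutrophils with 84.7, 46.1, 286.3 and 185.1 CPM. Slc48a1 (ENSMUSG00000081534, chr15:97778520-97792692), which carries heme out of lysosomes, had a mean of 116.8 CPM in oligodendrocyte cluster 12, against 41.4 CPM in monocyte-macrophages. Cluster 11, with cKO libraries only, held 111.7 and 123.1 CPM, where cluster 12 of the same libraries held 89.0 and 87.3 CPM. Blvrb (ENSMUSG00000040466, chr7:27447978-27466144), a biliverdin and flavin reductase, had its highest level in border macrophages, 37.3 ± 5.4 CPM (SD, n = 4 libraries). RNA of red cells was scarce: the 4 hemoglobin genes together lay between 0 and 35.2 CPM over 56 values of class and library, and red cells had been lysed.

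**Figure D1:**
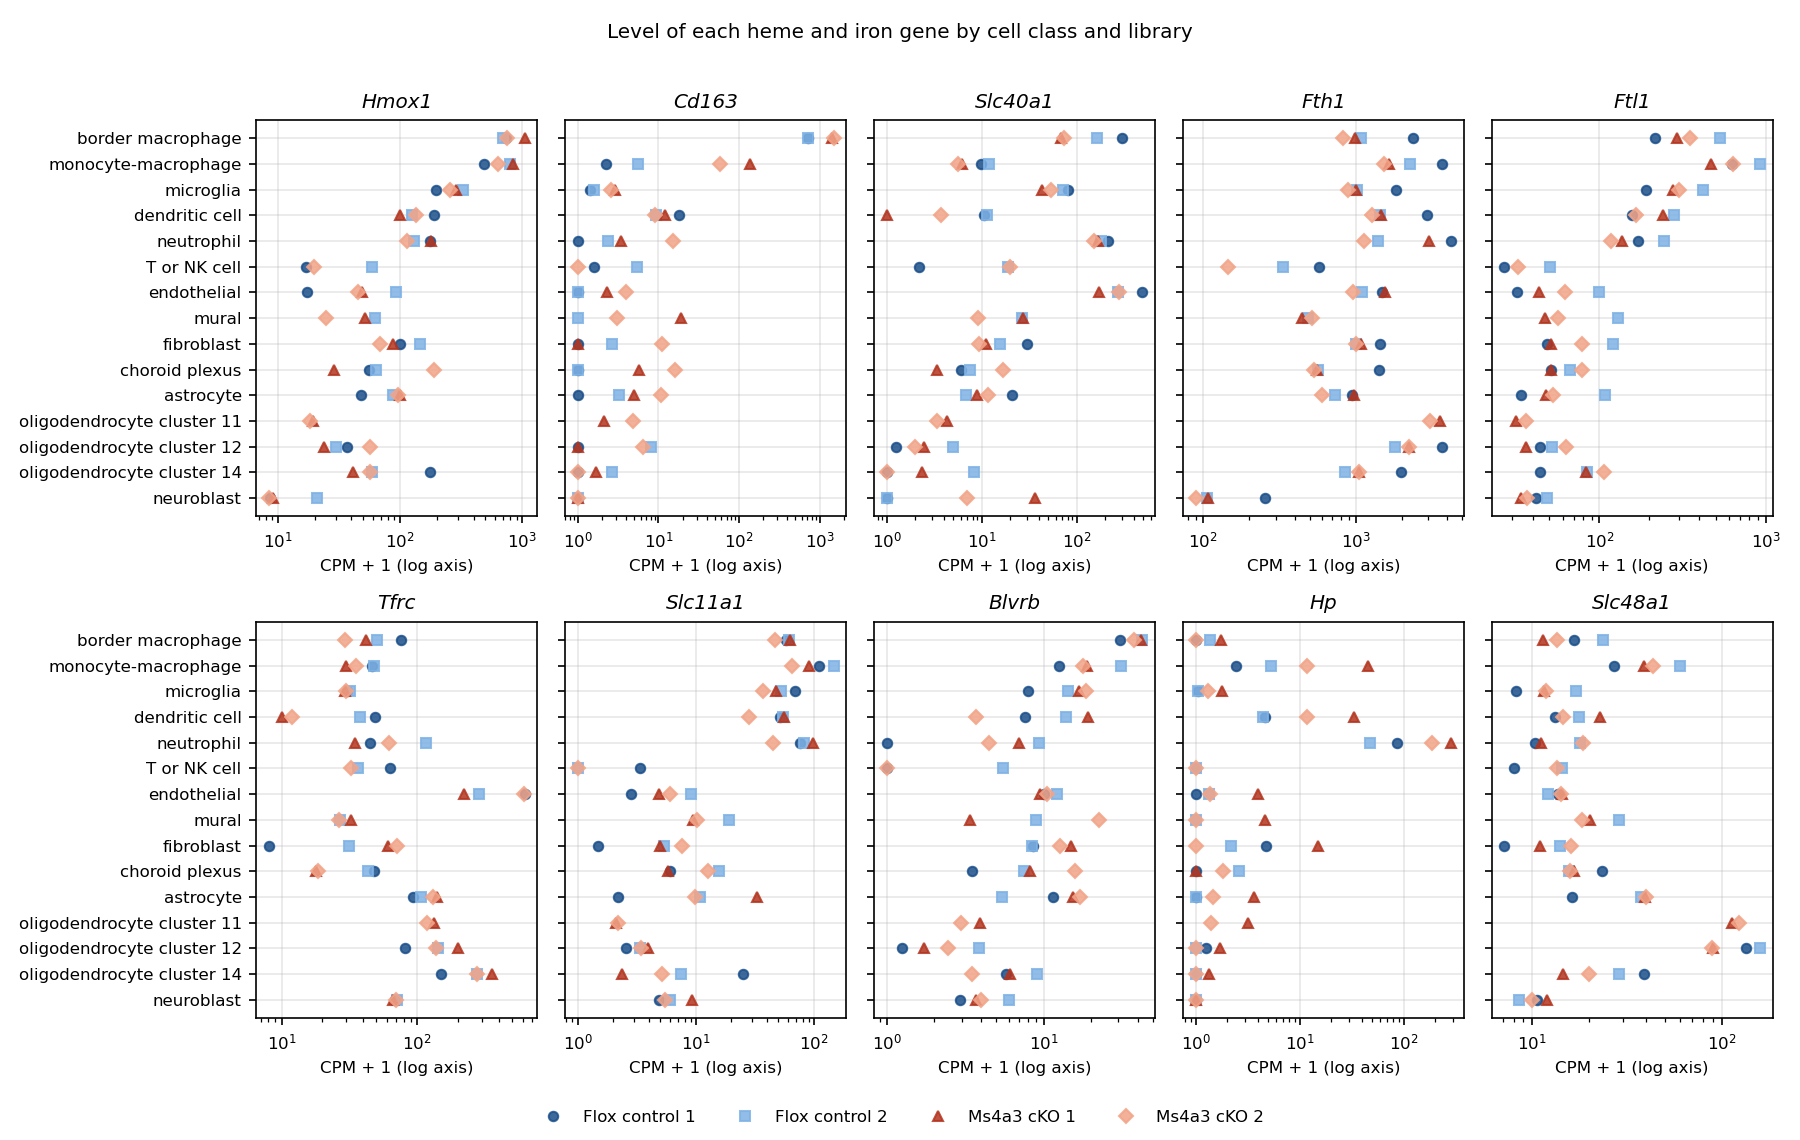
Level of each of the 10 genes in CPM + 1 (horizontal log axis) in 15 cell classes (vertical axis). A point is 1 library (blue Flox control, red Ms4a3 cKO) with at least 50 cells of that class, and no error bar is drawn. Cd163 in border macrophages lies between 709.6 and 1489.8 CPM, apart from every other class, and Hmox1 is highest in border macrophages and monocyte-macrophages.

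Some genes outside the list had a pattern over classes like that of a member, by Pearson r of log2(CPM + 1) means over 15 classes among 7956 genes. These points share libraries, depth and free RNA, and r is a description. The 5 nearest to Hmox1 were Creg1, Tmem106a, Ctsb, Tfec and Mfsd1 (r between 0.918 and 0.945). Cd163 had Mrc1, Ccl8, Cbr2, Fcna and Vsig4 (0.932 to 0.970), of which Mrc1 and Cbr2 are also in the marker list that named border macrophages. Slc40a1 had Klf2, Arap3, Il15, Txnip and Asb4 (0.831 to 0.902), and Hp had Slpi, Klra17, Trem3, Mcemp1 and Dhrs9 (0.945 to 0.957).

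The genotypes were first compared in monocyte-macrophages, a class for which Ms4a3-Cre is meant. By edgeR none of the 10 members passed, and neither did any of 13325 genes (percent called 0; 1546 at an unadjusted p under 0.05). DESeq2 called 4 members, Cd163, Hp, Slc40a1 and Slc11a1, where it called 3.29% of all genes. With TMM scaling, 2 members stood above both Flox controls in both cKO libraries and 5 below them. Of all genes, 24.3 and 25.9% did so. All such counts of members and of all genes used this scaling, while those of cell type markers did not. The members' median log2 fold change was -0.50, against -0.02 over all genes tested.

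Cd163 had the largest fitted difference among the members in this class. Its 1.2 and 4.6 CPM in the Flox controls faced 136.5 and 57.0 CPM in the cKO libraries, for which edgeR fitted a log2 difference of 4.98 (SE 0.73, edgeR adjusted p = 0.337; DESeq2 1.85e-14). Without 1 library, the log2 fold change lay between 4.22 and 5.97, and edgeR's adjusted p was 0.0416 or 0.0144 with the first or the second control left out, and 0.129 or 0.00640 with Ms4a3 cKO 1 or Ms4a3 cKO 2 left out. Of all genes, 0.951% were called without Flox control 1, 28.6% without Flox control 2 and 0.308% without Ms4a3 cKO 2. A Cd163 UMI was found in 21 of 3976 cells of Flox control 1 (0.528%, Wilson 95% interval 0.346 to 0.806) and in 56 of 4458 cells of Flox control 2 (1.26%, 0.969 to 1.63). It was found in 597 of 2952 cells of Ms4a3 cKO 1 (20.2%, 18.8 to 21.7) and in 213 of 1598 cells of Ms4a3 cKO 2 (13.3%, 11.8 to 15.1). Microglia, which should hold little of it, gave 0.154, 0.371, 0.767 and 0.595% (Wilson bounds between 0.078 and 1.07), at median depths of 6546, 6423, 5048 and 5879 UMIs against 10499, 7886, 6416 and 7699 in monocyte-macrophages. After each cell was thinned to 1000 UMIs, which left out between 23 and 39 shallower cells per library, the monocyte-macrophage shares were 0.126, 0.249, 6.14 and 3.25%. All these intervals cover counting error only.

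Most of these cells lay in 1 cluster. Of the Cd163-positive monocyte-macrophages, 533 of 597 and 188 of 213 in Ms4a3 cKO 1 and 2 were in cluster 6, which held 15 cells of Flox control 1 in all. There Cd163 stood at 28.8 CPM in Flox control 2 and at 174.8 and 77.8 CPM in the cKO libraries. In cluster 5, by contrast, the values of 15.8, 1.5, 16.6 and 9.9 CPM overlapped between genotypes, with a fitted log2 difference of 1.27 (SE 1.06, edgeR adjusted p = 0.820). Leaving out cluster 6 gave 3.94 (SE 0.61, edgeR adjusted p = 0.459). Fits by cluster were added after the values had been seen.

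Some markers of border macrophages moved with Cd163 in monocyte-macrophages. Of the 9 on the list, 5 were above both Flox controls in both cKO libraries (Mrc1, Lyve1, F13a1, Pf4 and Clec10a). With TMM scaling, 24.3% of all genes were so. Cbr2, Folr2, Gas6 and Cd209f overlapped between genotypes, with Folr2 at 106.3, 50.8, 67.6 and 68.8 CPM. The list summed to 950 and 1338 CPM in the Flox controls and to 3739 and 2965 CPM in the cKO libraries. F13a1 made up most of each sum. Lyve1 went from 0.941 and 1.04 CPM to 26.2 and 19.8 CPM, against 3082.9 and 3508.0 CPM in cKO border macrophages. F13a1 went from 666.9 and 701.2 CPM to 2481.4 and 1976.9 CPM, against 5181.7 and 5188.4 CPM in those cells. Cd209f was at 0.386 CPM and at 0 in the cKO libraries, against 29.7 and 21.1 CPM in cKO border macrophages. Cell by cell, these markers differed in how often a UMI was found. Among Cd163-positive monocyte-macrophages of Ms4a3 cKO 1 and 2, an F13a1 UMI was found in 99.7 and 100% of cells (Wilson 95% bounds between 98.2 and 100), a Mrc1 UMI in 81.9 and 77.9% (71.9 to 84.8) and a Pf4 UMI in 70.2 and 68.1% (61.5 to 74.0). Among Cd163-positive border macrophages these shares were 99.1 and 99.4% (95.1 to 99.9), 100 and 100% (96.7 to 100) and 79.5 and 80.0% (71.1 to 85.9). Among monocyte-macrophages without a Cd163 UMI in these libraries they were 97.7 and 96.8%, 43.4 and 47.7%, and 38.7 and 49.7%. An F13a1 UMI was thus also found in most Cd163-negative cells. Their median depths were lower, at 5848 and 7455 UMIs against 8828 and 8974 in the Cd163-positive ones. A Lyve1 UMI was present in 6.20% (Wilson 95% interval 4.53 to 8.43) and 10.3% (6.92 to 15.1) of the Cd163-positive monocyte-macrophages of Ms4a3 cKO 1 and 2. In Cd163-positive border macrophages of the same libraries it was present in 83.0% (75.0 to 88.9) and 82.5% (75.9 to 87.6). Arg1, a monocyte-macrophage marker on the list used here, was found in 83.9% (80.8 to 86.6) and 83.6% (78.0 to 87.9) of the former and in 28.6% (21.02 to 37.54) and 21.3% (15.6 to 28.2) of the latter. For Cbr2 the shares in the same Cd163-positive cells were 19.3 and 23.005% in monocyte-macrophages and 65.2 and 54.4% in border macrophages. For Cd209f they were 0.17 and 0% against 11.6 and 9.4%. The part of border macrophage RNA in the Cd163 difference was not tested beyond these values.

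**Figure D2:**
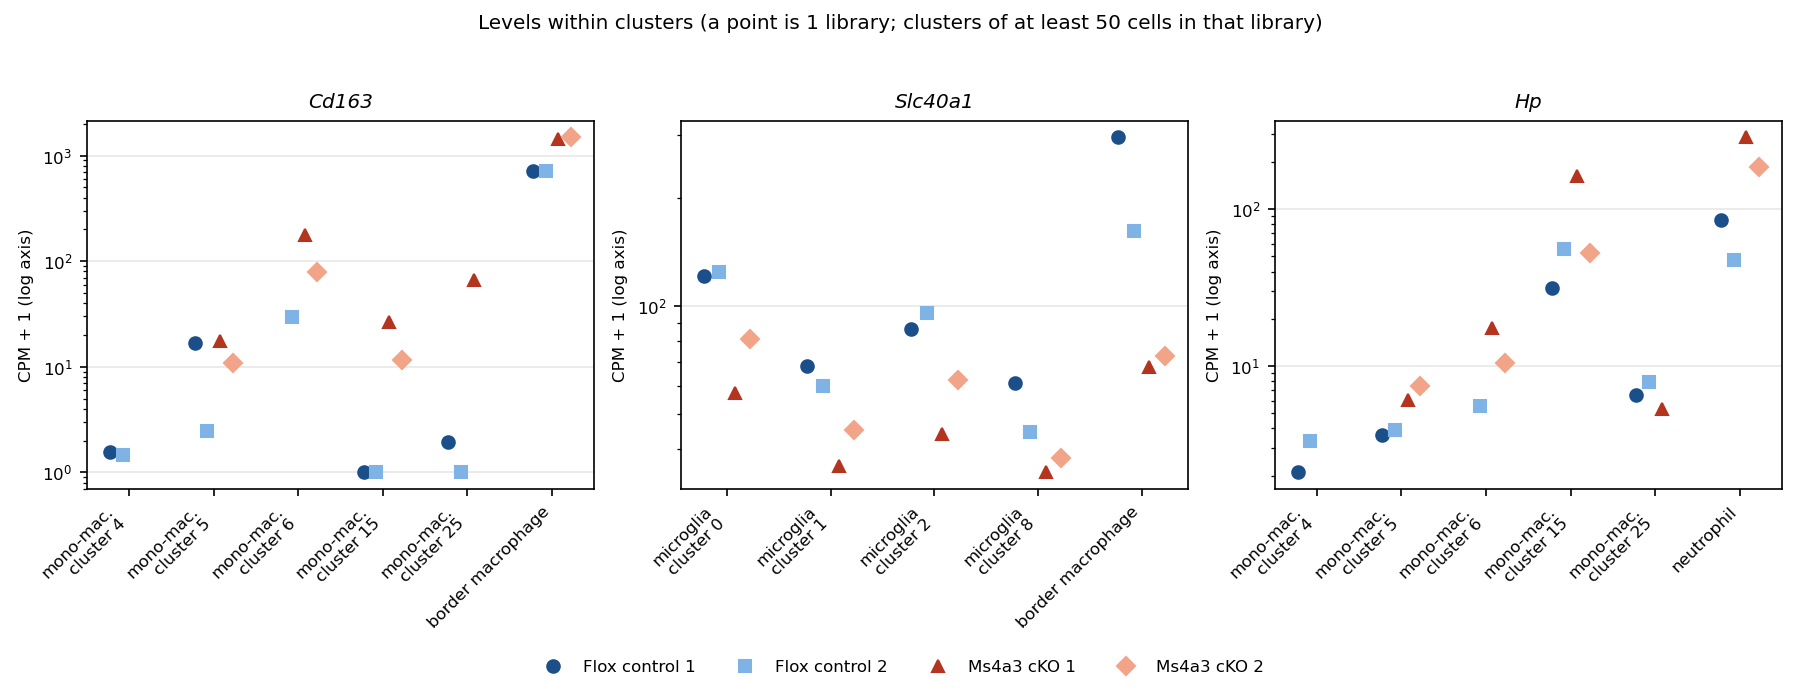
Levels of Cd163, Slc40a1 and Hp in CPM + 1 (vertical log axis) in monocyte-macrophage and microglia clusters beside border macrophages or neutrophils. A point is 1 library with at least 50 cells of that cluster. Cd163 in cluster 6 lies at 28.8 CPM in Flox control 2 and at 174.8 and 77.8 CPM in the cKO libraries, and Slc40a1 is lower in both cKO libraries in each of 4 microglia clusters.

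Hp in monocyte-macrophages stood at 1.5 and 4.4 CPM in the 2 controls and at 44.1 and 10.7 CPM in the cKO libraries. The groups did not overlap, with a fitted log2 difference of 3.14 (SE 0.82, edgeR adjusted p = 0.367; DESeq2 0.000563). Without Ms4a3 cKO 1 it was 1.78, and without Ms4a3 cKO 2 it passed edgeR's test (3.84, adjusted p = 0.0315), as 0.308% of all genes did. The Hp level was highest in cluster 15, with 30.3, 54.7, 161.4 and 51.5 CPM, values that overlapped between genotypes. The leading genes of this cluster include those of monocytes (Chil3, Ccr2, Plac8). Its mean marker score was 1.62 for the monocyte-macrophage list, with the neutrophil list next at 1.39. Cluster 15 made up 2.31, 5.14, 31.6 and 7.95% of the class. Neutrophil markers moved with Hp in part: 7 of 11 were above both Flox controls in both cKO libraries (24.3% of all genes, with TMM scaling). Their list summed to 338, 285, 1516 and 325 CPM, and Ly6g was at most at 0.289 CPM. Their part in the Hp difference was not tested.

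The iron export and storage genes were lower in both cKO libraries in monocyte-macrophages with TMM scaling, none of them past edgeR's test. Slc40a1 stood at 8.8 and 10.8 CPM against 5.2 and 4.6 CPM (log2 difference -1.17 with SE 0.25, edgeR adjusted p = 0.345; DESeq2 0.0325). Slc11a1 stood at 109.8 and 145.3 against 90.2 and 64.7 CPM (-0.88 with SE 0.21, edgeR adjusted p = 0.361; DESeq2 0.0447). Fth1 stood at 3695.7 and 2279.2 against 1644.2 and 1542.6 CPM (-1.13 with SE 0.39, edgeR adjusted p = 0.416). Without Flox control 1, the Fth1 difference was -0.51. Without Flox control 2 it was -1.56 (edgeR adjusted p = 0.0104), and Slc40a1, Slc11a1 and Tfrc also passed (0.0269, 0.0483 and 0.0247), as did 28.6% of all genes. Ftl1 and Tfrc were at -0.64 (SE 0.23) and -0.72 (SE 0.20), edgeR adjusted p = 0.416 and 0.372. Of the heme genes, Hmox1, Blvrb and Slc48a1 did not pass either tool's test. Hmox1 was at 0.06 (SE 0.24), Blvrb at -0.36 (SE 0.38) and Slc48a1 at -0.20 (SE 0.31), with overlapping libraries in each. The Hmox1 sign was negative without Flox control 1 (-0.10), without Ms4a3 cKO 1 (-0.17), in cluster 15 (-0.59) and without cluster 6 (-0.41).

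Microglia, which the Cre is meant to spare, gave no call among the 10 members by edgeR, nor among 14347 genes (percent called 0; 1506 at an unadjusted p under 0.05). DESeq2 called 1 member, Slc40a1, and 1.83% of all genes. Both cKO libraries stood above both Flox controls for 3 members and below for 4, where 25.1 and 23.3% of all genes did so. The members' median log2 fold change was -0.21, against -0.00 over all genes tested.

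Slc40a1, the exporter, was the microglial member that DESeq2 called. It stood at 79.8 and 71.4 CPM in the 2 controls and at 41.7 and 52.5 CPM in the cKO libraries (log2 difference -0.83 with SE 0.20, edgeR adjusted p = 0.470; DESeq2 0.04998). Both cKO libraries were lower in each of the 4 microglia clusters. In cluster 0 the values were 120.5 and 123.5 against 56.3 and 80.2 CPM, and in cluster 1 they were 67.1 and 58.8 against 34.96 and 44.1 CPM. The edgeR adjusted p was 0.158 in cluster 0 (-0.89, SE 0.21) and 0.428 in cluster 1 (-0.77, SE 0.21), fits added after the values had been seen. Without 1 library the log2 fold change lay between -1.03 and -0.63, and it passed edgeR's test only without Flox control 2 (adjusted p = 0.00879), where 29.8% of all genes did.

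The other microglial members gave smaller or thinly counted differences. Fth1 stood at 1839.1 and 1018.1 CPM in the 2 controls and at 1006.7 and 888.7 CPM in the cKO libraries (log2 difference -0.77 with SE 0.37, edgeR adjusted p = 0.492). Slc11a1 was at -0.69 (SE 0.27, edgeR adjusted p = 0.472) and Blvrb at 0.62 (SE 0.29, edgeR adjusted p = 0.490). Without Flox control 2 these 3 passed edgeR's test (adjusted p = 0.00331, 0.0120 and 0.0116), as did Cd163 (1.77, adjusted p = 0.0252). With Slc40a1 that made 5 of the 10 members, where 29.8% of all genes passed. Fth1 was at -0.14 without Flox control 1. Hmox1 was at -0.08 (SE 0.22), and its libraries overlapped. Cd163 was close to absent, with 16, 20, 57 and 69 UMIs in the whole class, and Hp had 2, 2, 24 and 14 UMIs. Monocyte-macrophage markers shifted both ways in the same sums, with 3 of 12 above and 5 of 12 below in both cKO libraries. Of all genes, 25.1 and 23.3% were so with TMM scaling, and the markers' part in these differences was not tested.

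The difference between the 2 genotype effects, monocyte-macrophages minus microglia, was tested in 1 fit with library as a block. No member and none of 14911 genes passed edgeR's test (percent called 0; 1497 at an unadjusted p under 0.05), and DESeq2 called 1 member, Cd163, and 1.23% of all genes. Cd163 differed by 3.34 on the log2 scale (SE 0.57, edgeR adjusted p = 0.306; DESeq2 8.96e-07). Blvrb came next at -0.90 (SE 0.20, edgeR adjusted p = 0.380), from 0.62 in microglia and -0.36 in monocyte-macrophages. Cd163 passed without Flox control 1 and without Flox control 2 (edgeR adjusted p = 0.0440 and 0.0116). Blvrb passed without Flox control 1 (0.0247), and Ftl1 without Flox control 2 (-0.89, 0.00881). Of all genes 1.51% passed without Flox control 1 and 9.82% without Flox control 2. For Slc40a1 the difference was -0.29 (SE 0.23, edgeR adjusted p = 0.693), and for Hmox1 it was 0.14 (SE 0.14, edgeR adjusted p = 0.762).

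Border macrophages, the class of Cd163, had 137, 324, 186 and 236 cells. Of the members, 9 could be tested, with Hp having too few UMIs. None passed edgeR's test, which called 40 of 8684 genes (percent called 0.461), while DESeq2 called 2 members, Cd163 and Slc40a1, and 1.35% of all genes. In both cKO libraries 2 members stood above and 4 below both Flox controls, where 22.1 and 21.6% of all genes did so. The median log2 fold change was -0.21 over the 9 members and -0.01 over all genes tested.

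The 2 genes at the ends of the pathway, hemoglobin uptake and iron export, differed in opposite directions here. Cd163 stood at 719.6 and 709.6 CPM in the 2 controls and at 1423.0 and 1489.8 CPM in the cKO libraries, with groups far apart and replicates close (log2 difference 1.03 with SE 0.17, edgeR adjusted p = 0.0629; DESeq2 0.00162). Slc40a1 stood at 295.2 and 160.9 against 66.8 and 71.9 CPM (-1.70 with SE 0.32, edgeR adjusted p = 0.0863; DESeq2 0.000531). Leaving out either Flox control brought both past edgeR's test, with an adjusted p of 0.000209 and 2.43e-06 for Cd163 and of 0.00101 and 2.50e-12 for Slc40a1. Of all genes, 4.07% passed without Flox control 1 and 15% without Flox control 2. Leaving out either cKO library gave between 0.436 and 0.702. The Slc40a1 value itself lay between -2.10 (Flox control 2 left out) and -1.18 (Flox control 1 left out).

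Fth1 was also lower in cKO border macrophages, at 984.8 and 822.7 CPM against 2366.7 and 1080.8 CPM (log2 difference -0.94 with SE 0.36, edgeR adjusted p = 0.402). Without Flox control 1 it was -0.23, and without Flox control 2 it was -1.40 (edgeR adjusted p = 2.49e-11). Hmox1 was at 0.33 (SE 0.21, edgeR adjusted p = 0.639). Tfrc and Slc48a1 were at -0.82 (SE 0.32) and -0.77 (SE 0.37), edgeR adjusted p = 0.421 and 0.522. Tfrc passed without Flox control 2 (edgeR adjusted p = 0.00331), and Ftl1, at -0.21 (SE 0.36), passed in opposite directions without Flox control 1 (-0.68, 0.0219) and without Flox control 2 (0.56, 0.0404). Of the 9 markers on the list of this class, 5 were above both Flox controls in both cKO libraries and 1 below. Of all genes, 22.1 and 21.6% were so with TMM scaling. Lyve1 was among those above, with 1104.4 and 699.0 against 3082.9 and 3508.0 CPM. Cd209f was below, at 780.5 and 92.6 against 29.7 and 21.1 CPM. The list summed to 12847 and 10278 CPM in the Flox controls and to 18628 and 18375 CPM in the cKO libraries. The monocyte-macrophage list summed to 17494 and 15271 against 10136 and 10133 CPM, most of it Lyz2 (15606.8 and 13838.3 against 8633.7 and 8821.7 CPM). Its 12 markers went both ways: 5 were above both Flox controls in both cKO libraries (Plac8, Arg1, Chil3, F10 and Thbs1) and 6 below. Arg1 stood at 0 and 35.3 against 483.5 and 339.1 CPM. The part of such a shift within the class in the Cd163 and Slc40a1 differences was not tested.

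**Figure D3:**
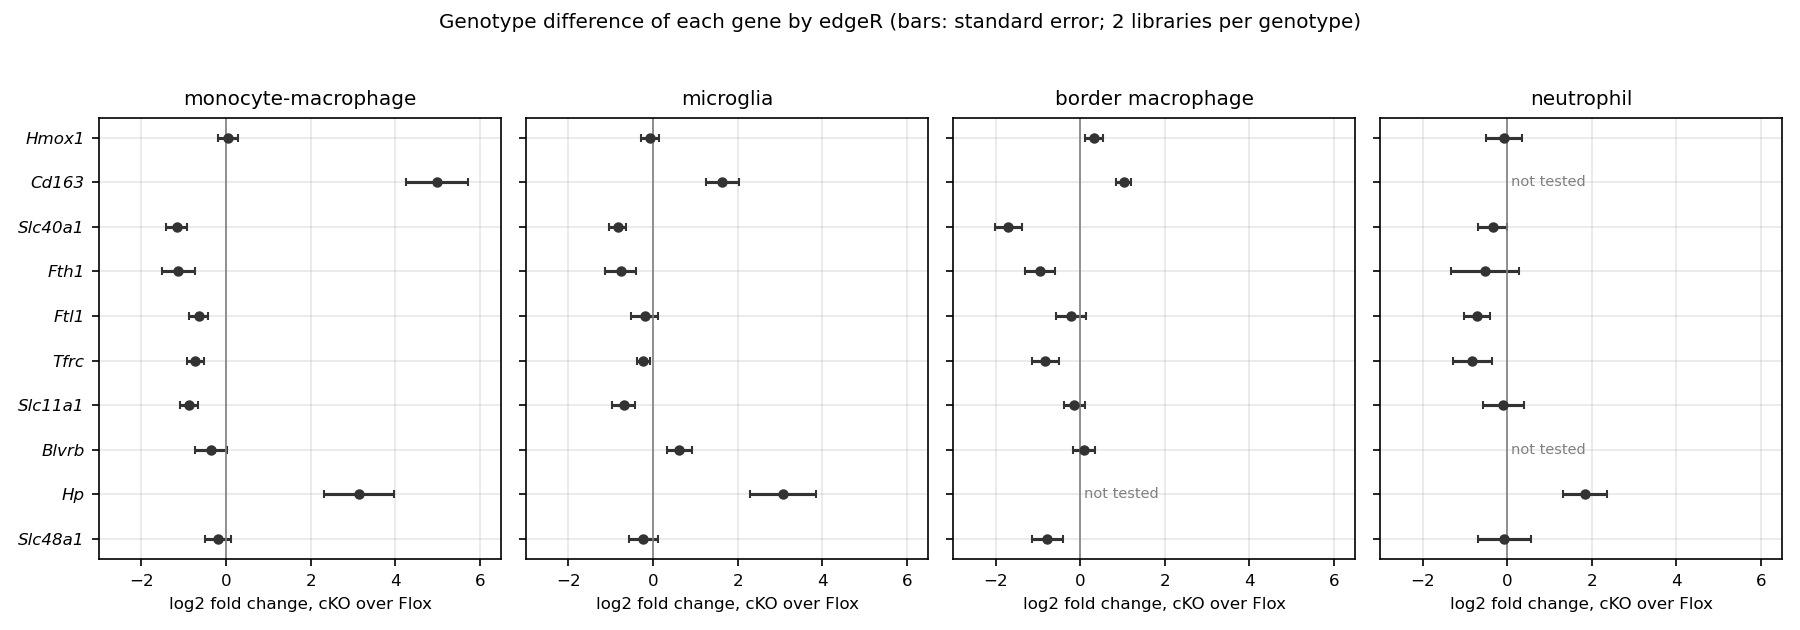
Log2 fold change of each gene, Ms4a3 cKO over Flox control (horizontal axis), in 4 cell classes by edgeR, with 2 libraries per genotype. Bars are standard errors, and members with too few UMIs are marked as not tested. Cd163 lies at 4.98 in monocyte-macrophages and 1.03 in border macrophages, and Slc40a1 lies below 0 in all 4 classes. No value passed the adjusted threshold.

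In neutrophils, granulocytes for which Ms4a3-Cre is also meant, 8 of the members were tested, Cd163 and Blvrb having too few UMIs. None of them and none of 6670 genes passed edgeR's test (percent called 0; 469 at an unadjusted p under 0.05), and DESeq2 called none of the members and 0.9% of all genes. In both cKO libraries 1 member stood above and 1 below both Flox controls, where 19 and 17.1% of all genes did so. The first was Hp, with 84.7 and 46.1 CPM against 286.3 and 185.1 CPM (log2 difference 1.85 with SE 0.52, edgeR adjusted p = 0.460; DESeq2 0.185). A Hp UMI was found in 14.4% (Wilson 95% interval 9.77 to 20.6) and 4.95% (3.38 to 7.21) of Flox neutrophils and in 38.9% (36.2 to 41.6) and 23.1% (18.7 to 28.3) of cKO ones. Their median depths were 1683, 1287, 1959 and 1526 UMIs. After thinning to 1000 UMIs, which left out 3, 115, 90 and 33 cells, the shares were 7.01, 3.33, 22.6 and 16.9%. Microglia, at the greater depths given above, had at most 0.504% (0.336 to 0.756) before thinning. The other member was Ftl1, at 169.4 and 243.3 against 136.5 and 117.0 CPM (-0.71 with SE 0.31, edgeR adjusted p = 0.746). Of the 11 neutrophil markers, 2 (Mmp8 and Stfa2l1) were above both Flox controls in both cKO libraries and 2 (Csf3r and Hdc) were below. These counts are near the 19 and 17.1% of all genes given above. The others overlapped between genotypes, among them S100a8, Retnlg and S100a9, the last at 36821.1 and 6527.5 against 23153.2 and 21901.9 CPM. Csf3r stood at 872.3 and 953.7 against 756.4 and 612.8 CPM and Hdc at 671.5 and 507.6 against 482.1 and 293.3 CPM. The part of these markers in the Hp difference was not tested. Slc40a1 in neutrophils was at -0.35 (SE 0.35), and its groups overlapped with TMM scaling though not without it.

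In the 8 other classes no member passed edgeR's test and DESeq2 called none. Over all genes edgeR called 0.0174% in astrocytes, 0.0264% in choroid plexus, 0.0304% in dendritic cells, 0.73% in oligodendrocyte cluster 12 and 0 in the rest. DESeq2 called 1.78, 0.29, 0.739 and 3.42% in the same 4, 0.517% in endothelium, 1.85% in fibroblasts, 1.04% in oligodendrocyte cluster 14 and 0 in neuroblasts. The libraries of the genotypes were apart for some members in each of these classes. In astrocytes 4 of 8 members were above and 0 below both Flox controls in both cKO libraries (25 and 24.8% of all genes), and in fibroblasts 2 of 7 were above and 2 below (21.2 and 21.6%). In dendritic cells 1 of 10 was above and 3 below (20.2 and 21.8%), in neuroblasts 0 of 3 were above and 2 below (19.6 and 18.7%), and in oligodendrocyte cluster 14, 2 of 5 were above and 1 below (26.2 and 23.6%). Only 1 member was below and 0 above in endothelium (of 8; 17.4 and 21.2%), choroid plexus (of 5; 19.7 and 20.1%) and oligodendrocyte cluster 12 (of 6; 24.2 and 24.3%). The smallest adjusted p was that of Slc48a1 in oligodendrocyte cluster 12. It stood at 132.8 and 158.2 CPM in the 2 controls and at 89.0 and 87.3 CPM in the cKO libraries (log2 difference -0.83 with SE 0.17, edgeR adjusted p = 0.0982). Dendritic cells gave Tfrc at 47.8 and 36.8 against 9.1 and 10.9 CPM (-2.20 with SE 0.46, edgeR adjusted p = 0.246). Without 1 library each, edgeR called Slc48a1 there without either Flox control (adjusted p = 0.000576 and 0.00158), and Tfrc in dendritic cells likewise (0.0317 and 1.13e-05). Of all genes 8.24 and 22% passed in these 2 fits of cluster 12, and 3.07 and 19.5% in those of dendritic cells. Without Flox control 2, 3 of 5 members passed in cluster 12, 3 of 8 in dendritic cells and 2 of 5 in fibroblasts, the last with 14.5% of all genes. In oligodendrocyte cluster 14, 4 of 5 members passed (16.1% of all genes), in choroid plexus 1 of 8 (5.94%) and in neuroblasts 1 of 4 (11.5%).

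The balance of the ferritin chains set Flox control 1 apart, and Ms4a3 cKO 1 was also high in most classes. Fth1 UMIs per Ftl1 UMI were 9.67, 2.42, 3.65 and 2.97 in microglia, 5.87, 2.47, 3.52 and 2.42 in monocyte-macrophages and 10.9, 2.04, 3.38 and 2.34 in border macrophages. Flox control 1 had the highest ratio in 13 of the 13 classes in which it had at least 50 cells. Flox control 2 lay near or below the cKO libraries, so the groups overlapped in these 3 classes. Together the chains made up 0.203, 0.144, 0.128 and 0.119% of microglial UMIs.

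**Figure D4:**
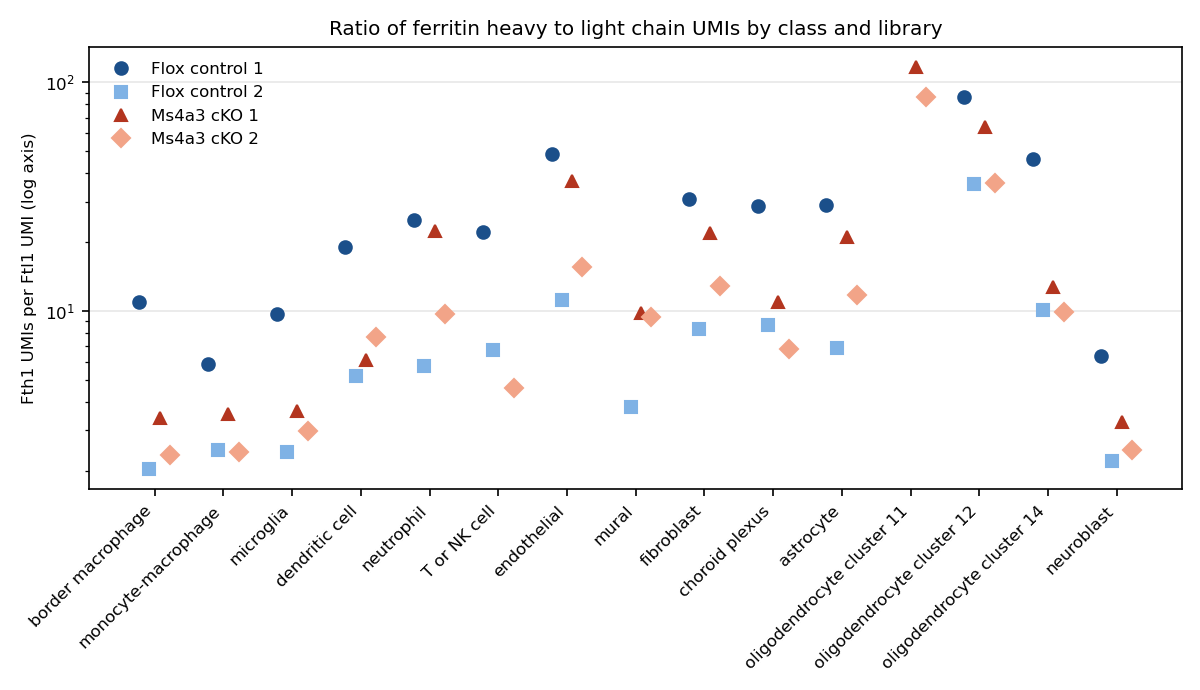
Fth1 UMIs per Ftl1 UMI (vertical log axis) in 15 cell classes, with 1 point per library. Flox control 1 (dark blue) is the highest point in each of the 13 classes where it is shown, for example 9.67 in microglia against 2.42 to 3.65 in the other libraries.

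Of the 46 other pathway genes, 41 were tested in monocyte-macrophages, 38 in microglia, 32 in border macrophages and 26 in neutrophils, and none passed edgeR's test in these classes. Their median log2 fold change was 0.02, 0.13, 0.04 and -0.02, against -0.02, -0.00, -0.01 and 0.01 over all genes. Ncoa4, the receptor that delivers ferritin to lysosomes, stood (with TMM scaling) at 178.2 and 107.3 against 65.2 and 75.6 CPM in monocyte-macrophages (log2 difference -1.02 with SE 0.28, edgeR adjusted p = 0.375). In border macrophages it stood at 270.0 and 147.0 against 57.8 and 70.2 CPM (-1.67 with SE 0.31, edgeR adjusted p = 0.0847), and in microglia it was at -0.64 (SE 0.18, edgeR adjusted p = 0.470).

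Fbxl5, the ubiquitin ligase subunit that removes an iron regulatory protein when iron is plentiful, stood (with TMM scaling) at 67.0 and 89.9 against 315.5 and 195.1 CPM in monocyte-macrophages (log2 difference 1.70 with SE 0.30, edgeR adjusted p = 0.345). In microglia it was at 0.76 (SE 0.19) and in border macrophages at 0.89 (SE 0.23), edgeR adjusted p = 0.470 and 0.205. Slc39a14, an importer of zinc and iron, was at 1.17 (SE 0.30) and 1.23 (SE 0.30) in monocyte-macrophages and border macrophages, edgeR adjusted p = 0.367 and 0.185. It was the 1 pathway gene that edgeR called in any class: in oligodendrocyte cluster 12 it rose from 46.0 and 54.5 to 216.2 and 233.4 CPM with TMM scaling (2.16, SE 0.19, adjusted p = 0.0144). In neutrophils Lcn2, which binds iron carriers of bacteria, and Steap4, a metal reductase, were at 1.94 (SE 0.69) and 1.90 (SE 0.68), edgeR adjusted p = 0.640 for both. The rule also named Flvcr1 in monocyte-macrophages (-0.62), Smad7 and Hfe in microglia (-0.76 and 0.47), Slc11a2 in border macrophages (-1.15), and Trf and Smad7 in neutrophils (0.70 and -0.62), none past the test.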

How the data were processed

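Single cells of 4 mouse brain libraries were captured with BD Rhapsody, which tags the 3′ end of each mRNA with a UMI. Per the submitters' processing notes, fastp 0.24.0, STARsolo and the build mm10 were used. For the annotation and strand setting, the sources used here give no statement. The authors deposited raw UMI counts per gene and barcode, not normalized. Groups were taken from the titles.

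Barcodes with at least 500 UMIs, 250 genes and under 20% mitochondrial UMIs passed (60942), and 1257 doublets predicted by Scrublet were removed (1.50 to 2.50% per library). Clusters came from scanpy 1.11.5 and leidenalg 0.10.2 (2000 variable genes, 30 components, 15 neighbours, resolution 1), without the 10 genes and the pathway list. UMIs were summed per library and class and tested with edgeR 4.0.16 in R 4.3.3 (quasi-likelihood test, TMM, filterByExpr, Benjamini-Hochberg adjustment over all genes of the class, threshold 0.05), without a replicate block. DESeq2 1.42.0 was an alternative, and the steps were tested on simulated data. Other alternatives were DESeq2's size factors, no low-count filter, 1 library left out, a replicate block, at least 1000 UMIs per cell, doublets kept, resolutions 0.5 and 2, and clustering with the members; fits within clusters and the crossed block were added after seeing the data. With 2 libraries a group, the smallest p of an exact permutation test is 0.333. Iron-responsive elements were read from GENCODE M21 transcripts.

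The members and lists were chosen with earlier results of these data known. The text names all members and, of the pathway list, every gene called and the 4 with the smallest p among those with a mean of at least 20 CPM in each of 4 classes. Likeness was ranked among genes with at least 50 CPM in a class.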

Additional observations from a re-analysis of the deposited data

Results flagged for a closer look

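Some members differed between genotypes in opposite directions in different classes, with the libraries of the 2 genotypes apart in each class named. They were picked for that separation (with TMM scaling), which is common. By class, between 19 and 26.2% of all genes were above both Flox controls in both cKO libraries and between 17.1 and 25.9% below. Some differences were small, such as Tfrc in neuroblasts (74.5 and 72.0 against 67.9 and 70.7 CPM with TMM scaling). Values are log2 fold changes, Ms4a3 cKO over Flox control, by edgeR, none past its adjusted threshold. The differences between classes were not tested, except those between monocyte-macrophages and microglia given above. Tfrc, the transferrin receptor, was higher in cKO astrocytes (0.44), fibroblasts (1.66) and oligodendrocyte cluster 14 (0.71). It was lower in border macrophages (-0.82), choroid plexus (-1.32), dendritic cells (-2.20), microglia (-0.23), monocyte-macrophages (-0.72) and neuroblasts (-0.079). Blvrb was higher in astrocytes (1.14), fibroblasts (0.66) and microglia (0.62) and lower in endothelium (-0.23). Hmox1 was higher in astrocytes (0.51) and border macrophages (0.33) and lower in fibroblasts (-0.78). Slc48a1 was higher in astrocytes (0.53) and lower in border macrophages (-0.77) and oligodendrocyte clusters 12 (-0.83) and 14 (-0.76). Ftl1 was higher in oligodendrocyte cluster 14 (0.62) and lower in monocyte-macrophages (-0.64), neuroblasts (-0.39) and neutrophils (-0.71).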

How the results depend on the processing

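Of 857 alternative values of 63 member results, 763 kept direction and side of the threshold, 55 newly passed it and 39 reversed. Many of those that newly passed had 1 library left out, and 8 were with DESeq2. None could lose a call, as no member was called in the main fits. Of the results, 43 never reversed. The level of each member in its highest class moved by less than 1 SD between libraries. That SD was wide for some, as for Tfrc in endothelium (434.5 ± 212.2 CPM). Levels in other classes were not checked in this way. For Fth1 and Slc48a1, highest in oligodendrocyte cluster 11, only thinning and kept doublets were checked, not the other resolutions. Their SD came from 2 libraries, both cKO. The cause of each shift was not tested. Genes called in monocyte-macrophages, 0 by edgeR, were 439 with DESeq2, 634 with no filter, 12 within cluster 5, 79 within cluster 15 and between 1 (without Ms4a3 cKO 1) and 3788 (without Flox control 2) without 1 library. For microglia, also 0, they were 262, 168 and 25 within cluster 0, and 0 to 4490 without 1 library. For border macrophages, 40, they were 117 and 463, 20 at resolution 2, 92 with the members among the variable genes, and 8 to 1344. For neutrophils, 0, they were 60 and 164, and 0 to 5. For the difference between monocyte-macrophages and microglia, 0, they were 183 and 65, and 0 to 1515. In other classes members called, 0, were 3 with no filter and 0 to 14 without 1 library. Over all genes tested, deviations of same-numbered libraries correlated at -0.185, -0.192 and -0.0125 in monocyte-macrophages, microglia and border macrophages. In neutrophils the value was 0.235, and other classes were not examined. The ratio of Fth1 to Ftl1 UMIs did go with the replicate number in most classes, as given above. Whether the numbers mark something that libraries share was not tested. The replicate block gave 0 calls in monocyte-macrophages, microglia and neutrophils and 72 in border macrophages, where Slc40a1 passed (-1.64, edgeR adjusted p = 0.0376). The crossed block, chosen after seeing the data, gave 63 and 21 calls in monocyte-macrophages and microglia. Reversed log2 fold changes within microglia cluster 0 were 0.14 (Hmox1), 0.18 (Ftl1) and 0.53 (Tfrc). In monocyte-macrophages they were -0.59 (Hmox1), 0.56 (Ftl1) and 0.67 (Tfrc) within cluster 15, -0.41 (Hmox1) without cluster 6 and 0.20 (Slc48a1) within cluster 5. In neutrophils they were 0.019 (Hmox1), 0.018 (Slc11a1) and 0.043 (Slc48a1) with no filter and 0.058 (Slc48a1) with the replicate block. In the difference between the 2 classes they were 0.40 (Hp, doublets kept) and -0.00125 (Slc48a1, no filter). Without 1 library the reversed results ranged as follows. Hmox1 ranged from -0.32 to 0.20 in microglia, -0.17 to 0.26 in monocyte-macrophages, -0.59 to 0.37 in neutrophils and -0.00070 to 0.27 in the difference. Fth1 ranged from -1.56 to 0.77 in neutrophils, and Ftl1 from -0.68 to 0.56 in border macrophages and -0.58 to 0.33 in microglia. Slc11a1 ranged from -0.36 to 0.072 in border macrophages, -0.98 to 0.40 in neutrophils and -0.57 to 0.13 in the difference. Blvrb ranged from -0.067 to 0.36 in border macrophages and -0.78 to 0.25 in monocyte-macrophages, and Hp from -0.52 to 0.72 in the difference. Slc48a1 ranged from -0.62 to 0.30 in microglia, -0.55 to 0.28 in monocyte-macrophages, -0.29 to 0.25 in neutrophils and -0.034 to 0.092 in the difference. Depth limits Cd163 and Hp outside their main classes, where a library often held few UMIs.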
